A study of Mus musculus with 2 samples.

Results

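The mRNA levels of 10 fibrillar and fibril-associated collagen genes were read from RNA sequencing of C2C12, an immortalised mouse myoblast line. The genes were taken by symbol from a list chosen with earlier results of these data known, and all 10 were found among the 21829 genes with values. One library came from cells of genotype WT and 1 from a line labelled GNE KO, which was made from C2C12 by CRISPR–Cas9 editing of exon 2 of Gne, the enzyme gene that opens sialic acid synthesis. KO cells were grown as clones from single cells after transfection, and neither line received a treatment in the labels. The unit is not named in the sources, and the values were read as FPKM, which counts fragments relative to transcript length and library depth. On such a scale levels of different genes can be set side by side. With 1 library per line there is no replicate error and no test, and a clonal difference and an effect of the edit cannot be told apart. Fewer cells of a type and less RNA per cell cannot be told apart either.

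The values summed to 568410 FPKM in WT and 574144 FPKM in the KO-labelled library, and the number of reads is unknown. Gne itself had 6.67 FPKM in WT and 7.34 FPKM in the KO-labelled library, so its RNA does not tell which library carries the edit. Fold changes are log2((KO + 1)/(WT + 1)), which understates the change of low genes. A gene is called higher or lower when this value lies beyond 1, a change of more than 2-fold after 1 FPKM is added, and its mean is at least 1 FPKM. Of 10542 genes past this filter, 2.84% were called higher and 3.43% lower.

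Fibrillar collagens are the rods of connective tissue. Their chains wind into a long triple helix in the endoplasmic reticulum, are trimmed outside the cell, and pack side by side into fibrils. In muscle they form much of the endomysium and perimysium around fibres, where fibroblasts make most of them, and cultured myoblasts also secrete them. Type I is built from a pair of α1 chains, from Col1a1, and a single α2 chain, from Col1a2. Type III is built from Col3a1 alone, type V and type XI chains start fibrils and limit their width, and types XII, XIV and XVI are fibril-associated collagens with short, interrupted helices.

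The repeat that makes the helix was visible in the coding sequences of the GENCODE vM39 transcripts on GRCm39. The helix repeats a glycine followed by 2 other residues, and glycine codons read GGN. In the 7 fibrillar genes the longest unbroken run of this unit, GGN and 2 further codons, had 337 to 344 units, which was 55.2% of the coding sequence in Col5a1 and 74.1% in Col1a2. It had 32 units in both Col12a1 and Col14a1 and 52 in Col16a1. Col16a1 had 14 separate runs of at least 10 units, against 2 in each fibrillar gene. Of 21618 coding transcripts, 15 held a run of at least 100 units, all of them collagens.

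Many coding exons of these genes are 54 bases long and hold whole units. The first such exon inside the longest run is shown for 6 genes, 5′ to 3′ on the coding strand, with the GGN codons of the repeat in capitals, to set the type I chains side by side and to show the same unit in fibril-associated genes.
Col1a1: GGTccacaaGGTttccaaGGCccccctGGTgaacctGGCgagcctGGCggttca
Col1a2: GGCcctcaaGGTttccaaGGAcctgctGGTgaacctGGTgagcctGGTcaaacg
Col3a1: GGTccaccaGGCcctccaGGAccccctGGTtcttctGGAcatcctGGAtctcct
Col5a1: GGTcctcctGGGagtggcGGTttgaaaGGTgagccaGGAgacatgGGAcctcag
Col12a1: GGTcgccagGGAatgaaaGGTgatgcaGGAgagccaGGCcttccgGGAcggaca
Col16a1: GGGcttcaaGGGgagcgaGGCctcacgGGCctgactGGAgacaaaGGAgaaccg

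In GRCm39 the Col1a1 exon lies at chr11:94830730-94830783 on the plus strand and is coding exon 8 of 51. The Col1a2 exon lies at chr6:4515481-4515534, plus strand, coding exon 8 of 52. The Col3a1 exon lies at chr1:45364520-45364573, plus strand, coding exon 6 of 51. The Col5a1 exon lies at chr2:27855263-27855316, plus strand, coding exon 15 of 66. The Col12a1 exon lies at chr9:79520198-79520251, minus strand, coding exon 56 of 65. The Col16a1 exon lies at chr4:129976915-129976968, plus strand, coding exon 48 of 69. Each of these exons holds 6 capital codons. Exons of 54 bases made up 21 of the 49 inner coding exons of Col1a1, 31 of 65 in Col5a3 and Col11a1, 12 of 67 in Col16a1, and 4 of 63 in Col12a1. Over all coding transcripts the share was 0.72%.

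To compare collagen mRNA between KO and WT cells, each gene was set side by side in the libraries. Of the 10 genes, 8 passed the filter, each with more than 1 FPKM in both libraries. All 8 were higher in the KO-labelled library than in WT, as were 50.7% of all genes past the filter. Col1a1, Col1a2 and Col16a1 were called higher, 3 of 8 against the background of 2.84%, and 0 were called lower. Since the list was chosen with earlier results of these data known, this contrast is a description and not a test. The median log2 fold change of the 8 genes was 0.78, from 0.03 for Col5a1 to 4.69 for Col1a1, and that of all genes past the filter was 0.0061. The size of the difference thus varied widely among the 8 genes.

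**Figure D1:**
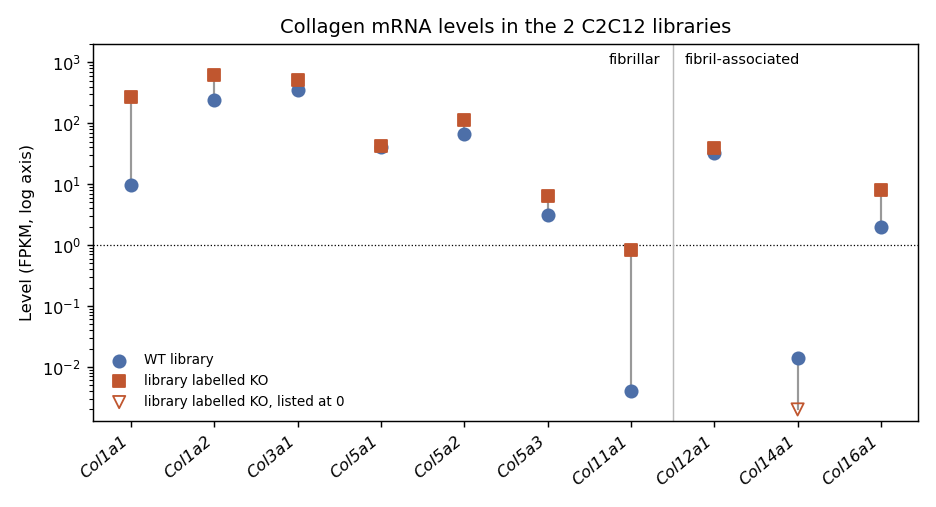
Level of each collagen gene in FPKM on a log axis, with circles for the WT library and squares for the KO-labelled library, 1 library each. The dotted line marks 1 FPKM, and the open triangle is Col14a1, listed at 0 and drawn at the foot of the axis. Col1a1 went from 9.66 to 273 FPKM, while Col5a1 stood at 41.3 and 42.2 FPKM.

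Col1a1, which encodes the α1 chain of type I collagen, had 9.66 FPKM in WT and 273 FPKM in the KO-labelled library. The ratio of these levels was 28.3, and the log2 fold change of 4.69 ranked 4 among the 10542 genes past the filter. By level, Col1a1 ranked 6820 of 21829 genes in WT and 300 in the KO-labelled library. Its partner Col1a2 was already abundant in the WT library, at 237 FPKM, and stood at 621 FPKM in the KO-labelled library. The level ratio was 2.61 and the log2 fold change 1.38. Col1a2 was thus the most abundant of the 10 genes in the KO-labelled library, and Col3a1 was in the WT library.

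The balance of the type I chains differed between the libraries. The level of Col1a1 per Col1a2 was 0.041 in WT and 0.44 in the KO-labelled library, a ratio 10.8 times as high. Col1a1 stayed below the level of Col1a2 in both libraries. Together, Col1a1 and Col1a2 had 247 FPKM in WT and 894 FPKM in the KO-labelled library, a ratio of 3.62.

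Col3a1, the chain of type III collagen, which mixes with type I in the fibrils of extensible tissue, had 347 FPKM in WT and 519.9 FPKM in the KO-labelled library. Its log2 fold change of 0.58 was below the call. The level of Col3a1 per Col1a1 was 36.0 in WT and 1.90 in the KO-labelled library. Against Col1a2 the Col3a1 ratio was 1.46 and 0.84, so the order of these 2 genes was reversed.

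The type V chains join type I in mixed fibrils and set how many fibrils start. Col5a1, the α1 chain that most type V molecules need, had 41.3 FPKM in WT and 42.2 FPKM in the KO-labelled library, a log2 fold change of 0.03. Col5a2, the α2 chain, had 67.1 and 111 FPKM, a log2 fold change of 0.72. Col5a3, the least common chain, had 3.10 and 6.30 FPKM, a level ratio of 2.03 and a log2 fold change of 0.83. None of the 3 genes was called, but for Col5a3 this rests on the pseudocount, since 0.1 in place of 1 gave 1.00, just past the call. The level of Col5a1 per Col5a2 was 0.61 in WT and 0.38 in the KO-labelled library. All type V chains together had 112 FPKM and 160.0 FPKM, a ratio of 1.43, and they amounted to 0.45 of the type I level in WT and 0.18 in the KO-labelled library.

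Col11a1, a type XI chain of cartilage fibrils that can also enter type V molecules, was below the filter. It had 0.0040 FPKM in WT and 0.823 FPKM in the KO-labelled library. The WT value is the smallest above 0 in that library among genes within 10% of its transcript length of 7722 bases, Col11a1 itself included. For this reason no ratio is given. The log2 fold change of Col11a1 was 0.86, and it was 3.15 when 0.1 replaced 1 as the pseudocount, so its size rests on that choice. The other fibrillar genes outside the list, Col2a1, Col11a2, Col24a1 and Col27a1, were all below the filter, with 0.198 FPKM in sum in WT and 0.606 FPKM in the KO-labelled library.

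Of the fibril-associated genes, Col16a1 was called higher. It is expressed by many connective tissue cells and encodes a collagen found at fibril surfaces. It had 1.96 FPKM in WT and 7.98 FPKM in the KO-labelled library, a level ratio of 4.08 and a log2 fold change of 1.60. Adding 5 in place of 1 gave it 0.90, which ends the call, and at a mean of 4.97 FPKM it is left out by a filter of 5 FPKM. Col12a1, the long chain of type XII collagen that sits on type I fibrils in muscle and tendon, had 32.6 and 38.6 FPKM, a log2 fold change of 0.24. Col14a1, the type XIV chain, had 0.014 FPKM in WT and was listed at 0 in the KO-labelled library. Col12a1 and Col14a1, which have the same length of repeat, were therefore at levels far apart in both libraries.

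The make-up of the collagen mRNA followed from these levels. The 10 genes summed to 741 FPKM in WT and 1621 FPKM in the KO-labelled library, a ratio of 2.19. This was 0.13% of all FPKM in WT and 0.28% in the KO-labelled library. Col1a2 contributed 43.5% of the difference between the sums, Col1a1 29.9%, Col3a1 19.6% and Col5a2 5.03%. The other 6 genes contributed less than 1% each, and that of Col14a1 was negative. Without Col1a1 the ratio of the sums was 1.84.

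As a share of the sum, Col1a1 was 1.3% in WT and 16.9% in the KO-labelled library. Col1a2 was 32.1% and 38.3%. Col3a1 was 46.9% of the sum in WT and 32.1% in the KO-labelled library. Type I chains thus made up 33.4% of the sum in WT and 55.1% in the KO-labelled library. Col5a1 was 5.58% and 2.60%, and Col12a1 was 4.40% and 2.38%, lower shares of a larger sum at nearly level FPKM.

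**Figure D2:**
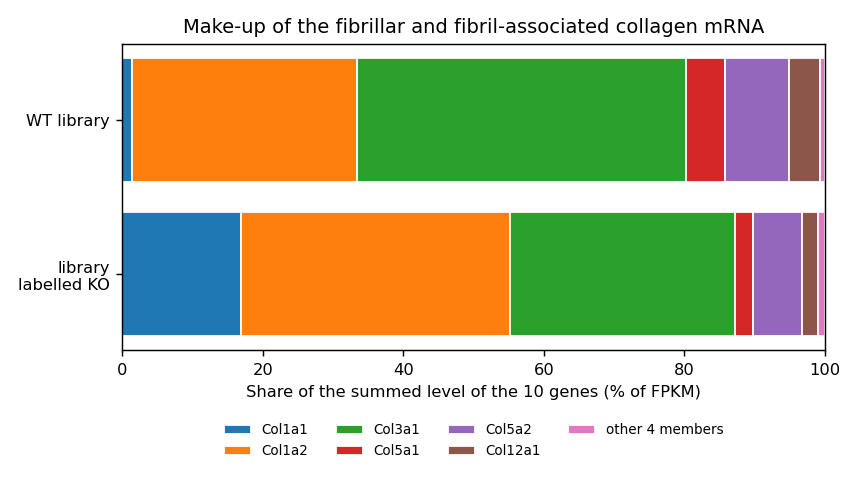
Share of each gene in the summed FPKM of the 10 collagen genes, with 1 bar per library, in percent. Col1a1 takes 1.3% of the bar in WT and 16.9% in the KO-labelled library, while Col3a1 takes 46.9% and 32.1%.

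Each collagen was also set beside its chromosomal surroundings, the filtered genes lying up to 5 Mb away in each direction. Of all genes past the filter, 2.84% were called higher and 3.43% lower. Around Col1a1, on chromosome 11, 80 genes had a median log2 fold change of -0.07, and 1 of them was called higher and 2 lower. Around Col16a1, on chromosome 4, 103 genes had a median of -0.07, with 0 called higher and 3 lower. Around Col1a2, on chromosome 6, 19 genes had a median of 0.14, and 3 of them were called higher and 1 lower. After subtraction of these medians Col1a1 kept 4.76, Col16a1 1.68 and Col1a2 1.24, so the same 3 genes stayed beyond 1, where 2.63% of 10170 genes with positions lay above 1.

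The other members lay closer to their neighbours. Col3a1 and Col5a2 are adjacent on chromosome 1, where the genes are 16.7 kb apart and point towards each other. Each had 18 neighbours, the other collagen included, of which 3 were called higher and 0 lower. Both had the neighbour median of 0.22, and kept 0.36 and 0.50 after its subtraction. Col5a3, on chromosome 9, had a neighbour median of 0.30 and kept 0.53. Col12a1 is on the same chromosome with a neighbour median of -0.04, and kept 0.28. Col5a1, on chromosome 2 among 137 neighbours with a median of -0.09, kept 0.12. The median of the 8 genes was 0.51 after the subtraction.

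**Figure D3:**
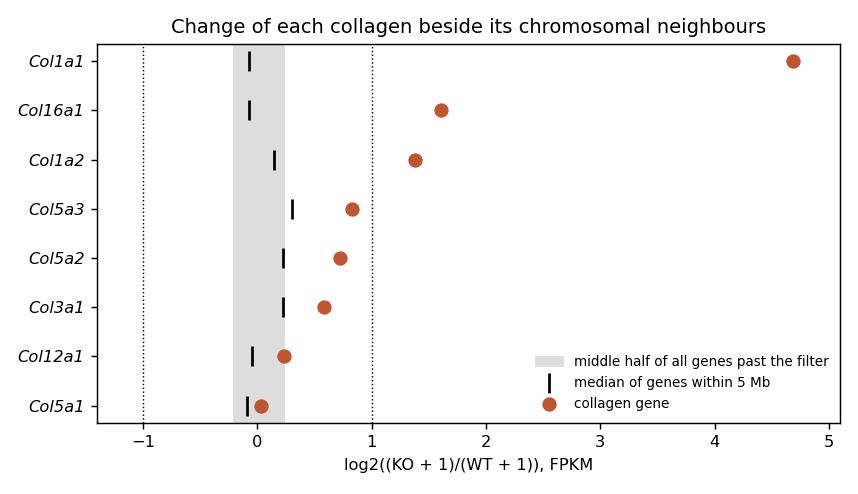
Log2 fold change on the log2(FPKM + 1) scale of the 8 collagen genes past the filter, as points, with the median of the genes within 5 Mb as ticks. The grey band spans the quartiles of all genes past the filter, from -0.21 to 0.23, and the dotted lines mark 1 in either direction. Col1a1, Col16a1 and Col1a2 lie beyond 1 and their neighbour medians lie between -0.07 and 0.14.

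Promoter sequences from RefSeq on GRCm38.p6, windows of 300 bases around the start of a transcript, were matched to 6 of the 10 genes. The others, Col1a1, Col5a2, Col12a1 and Col14a1, had no entry. The windows were searched on both strands for CCAAT, the box bound by NF-Y, for GGGCGG, the GC box bound by Sp1 and its relatives, and for TATAAA. None of these motifs contains another. CCAAT was in 4 of the 6 windows, against 37.4% of all 32851 windows, GGGCGG in 5 of 6 against 35.7%, and TATAAA in 1 of 6 against 13.6%. These shares are not matched for base composition. G and C made up 61% to 75% of the bases in the 5 windows with GGGCGG, and 37.7% in that of Col3a1. The median over all windows was 52.7%, with quartiles of 45.7% and 61.7%. Whether the motifs are more frequent than in windows of like composition was not tested. The CCAAT closest before the start is shown with its flanks for the 4 genes that hold it, in the direction of the gene and with the motif, or its reverse complement ATTGG, in capitals.
Col1a2: aaaagaatggaaCCAATttaagaagccccg
Col5a3: gatctcagccagCCAATcagcgcgtggtgc
Col11a1: gggaggcctgtgATTGGgtatgaccttcag
Col16a1: cggcggtgcaggCCAATggccagtgcctcc

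The Col1a2 stretch is chr6:4505497-4505526 on the plus strand, with the first base of the motif at -109, counted from the start with no base 0. The Col5a3 stretch is chr9:20815172-20815201 on the minus strand, with the motif at -122. The Col11a1 stretch is chr3:114030449-114030478 on the plus strand, with the motif at -79. The Col16a1 stretch is chr4:130047715-130047744 on the plus strand, with the motif at -113. The start differs between annotations, and the GENCODE transcript of Col1a2 begins at -125 on this scale, so that the motif lies inside that transcript. Col3a1 was the gene with TATAAA, and it held neither other motif. Col5a1 held GGGCGG alone. Which of these starts the cells used was not measured, and a match is a run of letters, not a bound site.

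The genes that process, bind and degrade fibrillar collagen were counted by list. These lists were also chosen with earlier results of these data known, so their counts are descriptions and not tests. Of all genes past the filter, 2.84% were called higher and 3.43% lower, and a count of 0 in a short list is near those shares. Of 19 genes for chain modification and folding past the filter, 0 were called in either direction, and the median log2 fold change was 0.16. Among them Serpinh1, the collagen chaperone, had 534 FPKM in WT and 533 FPKM in the KO-labelled library, and Sparc, a collagen-binding protein with the highest level of the list, had 679 and 687 FPKM. Of 8 genes for propeptide removal and crosslinking, 1 was called higher, Loxl1, a lysyl oxidase, at 15.2 and 42.3 FPKM, and the median was 0.09. Pcolce, an enhancer of propeptide removal, had 479 and 465 FPKM. The medians of these lists, 0.16 and 0.09, thus lay below the 0.78 of the collagen genes and above the 0.0061 of all genes past the filter. Single genes for chain modification and folding ranged from -0.92 to 0.75. Of these, 13 were higher and 6 lower in the KO-labelled library, where 50.7% of all genes past the filter were higher.

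Of 9 fibril assembly partners past the filter, 4 were called higher and 0 lower, with a median of 0.88. Over all genes past the filter, 2.84% were called higher and 3.43% lower. Postn, which binds collagen and aids crosslinking, had 0.44 and 33.9 FPKM. Aspn, a small leucine-rich proteoglycan that binds type I collagen, had 0.609 and 28.5 FPKM. Thbs2, a thrombospondin that affects fibril shape, had 2.80 and 37.8 FPKM, and Ogn, another leucine-rich proteoglycan, had 34.3 and 99.7 FPKM. Bgn had the highest level of this list, 545 FPKM in WT and 1004 FPKM in the KO-labelled library. Fn1, on which collagen fibrils assemble, had 138 and 232 FPKM, a log2 fold change of 0.75.

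Of 4 collagen receptors past the filter, 1 was called higher, Mrc2, which takes up collagen for degradation, at 19.7 and 45.8 FPKM, and 0 lower. Itgb1, the shared β chain of the collagen-binding integrins, had 153 and 247 FPKM, but its partners Itga1, Itga2, Itga10 and Itga11 were below the filter. Of 6 genes for degradation, 0 were called, and Timp2, with the highest level, had 269 and 281 FPKM. Of 18 regulators of collagen transcription, 1 was called higher, Ccn2, also a target of TGF-beta signalling, at 17.5 and 62.1 FPKM. Ybx1 had the highest level, at 442 and 503 FPKM, and the median of this list was -0.02. The subunits of NF-Y, Nfya, Nfyb and Nfyc, lay between -0.19 and -0.03 on the log2 scale. Sp1 and its relative Sp3 had log2 fold changes of -0.02 and -0.24. All 18 regulators ranged from -0.49 to 1.77. The counts of 0 in the 6 degradation genes and 1 in the 18 regulators are near the shares of all genes.

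**Figure D4:**
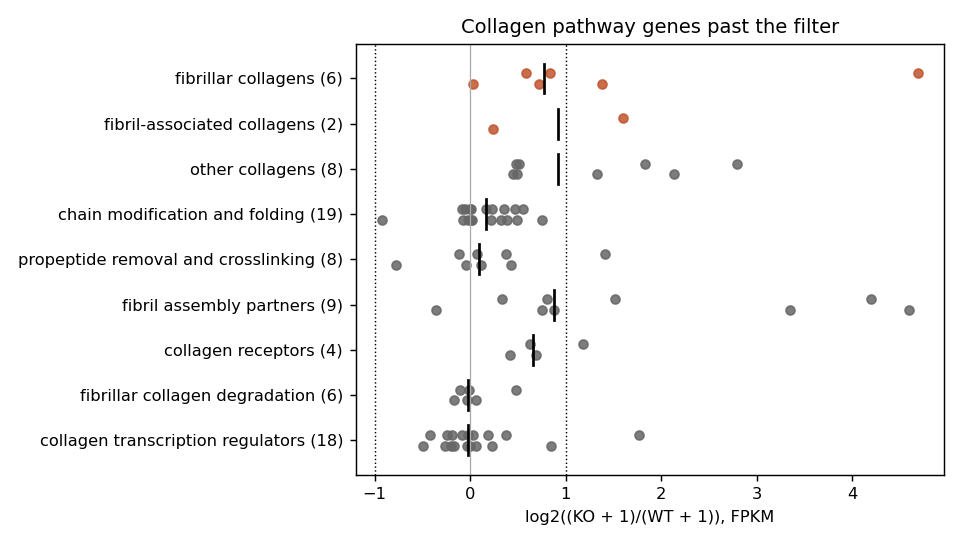
Log2 fold change on the log2(FPKM + 1) scale of each gene past the filter, by list, with the number of such genes in parentheses, collagen genes of this report in orange and vertical bars for list medians. The 19 genes for chain modification and folding all lie between -0.92 and 0.75. Of the 8 orange points 3 lie above 1, where 2.84% of all genes past the filter do.

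The remaining collagens serve as a comparison. Of 24 network, beaded and other collagens in the files, 8 passed the filter. All 8 were higher in the KO-labelled library than in WT, as were 50.7% of all genes past the filter. Of the 8, 4 were called higher, Col4a1, Col4a2, Col4a5 and Col6a3, against 2.84% of all genes past the filter. Their median log2 fold change was 0.92, against 0.78 for the fibrillar and fibril-associated genes, and the ratio of their sums was 2.47, against 2.19. Col6a1 and Col8a1 had log2 fold changes of 0.51 and 0.45. Higher values were thus also seen outside the fibrillar and fibril-associated genes. The fibril-associated genes outside the list, of which 6 were found, were all below the filter.

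Markers of myoblasts, of connective tissue cells and of blood and endothelial cells had the following values, and their part in the collagen values was not tested. These lists too were chosen with earlier results of these data known. Of all genes past the filter, 2.84% were called higher and 3.43% lower. Of 9 myoblast markers 7 passed the filter, of which 4 were called lower, Myod1, Des, Cdh15 and Chrna1, and 1 higher, Myf5, and their summed level was 261 FPKM in WT and 67.1 FPKM in the KO-labelled library. Myod1 had 60.0 FPKM in WT and 0 in the KO-labelled library, and Pax7 was listed at 0 in both. Of 11 fibroblast markers, which summed to 346 and 205 FPKM, 4 passed. Most of that difference came from Cd34, called lower at 136 and 10.6 FPKM, while Postn was called higher at 0.44 and 33.9 FPKM. Ly6a, the highest of the 4, had 198 and 146 FPKM and Pdgfra had 10.8 and 12.3 FPKM. Below the filter, Dcn had 0.272 and 1.68 FPKM and Dpt 0.041 and 0.493 FPKM, and Thy1, Lum, Tcf21 and Fap were listed at 0 in both libraries. Of 7 tendon markers 4 passed and 0 were called, with sums of 249 and 196 FPKM and Tnmd at 0 in both. Egr1, the highest, had 139 and 129 FPKM, and the other 3 were Scx at 102 and 54.2, Egr2 at 5.32 and 9.87, and Mkx at 2.31 and 3.00 FPKM. Of 8 cartilage markers 1 passed, Sox9, with sums of 17.1 and 25 FPKM, and Acan and Matn1 were at 0 in both. Of 7 bone markers 2 passed and 0 were called, with sums of 1550 and 2218 FPKM, nearly all from Spp1, and Alpl and Ibsp were at 0 in both. Of 5 blood markers 1 passed, Cd68, with sums of 2.85 and 1.06 FPKM, and the other 4, Ptprc among them, were at 0 in both. Of 5 endothelial markers 0 passed, with sums of 0.010 and 0.028 FPKM, and 3 were at 0 in both.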

How the data were processed

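RNA of 1 WT and 1 KO C2C12 library was analysed. The FPKM values were deposited by the authors, who used TrimGalore, STAR and RSEM according to the methods and mapped to GRCm39. The processing notes of the labels instead list GRCm38 and GRCh38, beside Trim Galore 0.6.6, STAR 2.7.9a and RSEM 1.3.3. The unit of the deposited values is not named in the sources used here and was taken as FPKM. Whether they are a TPM table limited to these genes was not tested. Read depth is unknown, which leaves counting error unquantified. The methods' test of replicate counts could not be run on 1 library per line.

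Each file had 21853 rows. For the 24 rows that repeated a symbol, that with the greater mean over both libraries was used. Positions, exons and coding sequences came from GENCODE vM39. The members and all lists (collagens, their processing, assembly, receptors, degradation and transcription, and cell type markers) were chosen with earlier results of these data known, and 182 of 184 listed symbols were found. Named genes were the members, called genes of each list, the highest gene of each list with a gene past the filter, and, of the matrix genes the paper names, Fn1, Col6a1 and Col8a1. Lama4 was in this rule but is on no list. Serpinh1, the NF-Y subunits, Sp1 and Sp3, the integrin α chains and the markers not called were picked with their values in view. The calling step was tested on simulated data, with changes larger than the call planted in genes of at least 5 FPKM in WT. That simulation does not test the calls of lower genes such as Col16a1 and Col5a3. Alternatives used pseudocounts of 0.1 and 5, median of ratios scaling, neighbour medians subtracted, no filter or a mean of 5 FPKM, the sum without Col1a1, and rows of a repeated symbol summed. Python 3.11.15, numpy 2.4.6, pandas 2.3.3 and matplotlib 3.10.9 were used.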

Additional observations from a re-analysis of the deposited data

How the results depend on the processing

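No paired analysis was possible because each line has a single library, and for that reason none could be left out. Fold changes on the log2 scale and their medians were taken as moved beyond 0.44, the interquartile range of all filtered genes, and counts and ratios beyond 1.5 times. Summing rows of a repeated symbol could not move the 14 chain ratios, since no member has repeated rows. Of the other 72 comparisons with an alternative, 64 stayed within these limits. Those with median of ratios scaling could hardly move, as its factor was 1.004. The 64 thus include comparisons whose outcome was nearly fixed in advance. A pseudocount cannot change the direction of a fold change, and a scaling factor this close to 1 hardly can. A called gene could thus be reversed only by the neighbour subtraction, which reversed 0. A count of 3 collagen genes that falls to 2 lies at the limit of 1.5 and was taken as not moved. A pseudocount of 5 gave log2 fold changes of 4.25 for Col1a1, 0.90 for Col16a1 and 0.22 for Col11a1, and one of 0.1 gave 3.15 for Col11a1. A larger pseudocount shrinks every fold change by construction. All genes called higher and lower numbered 299 and 362. They were 102 and 176 at the pseudocount of 5, and 145 and 221 when the mean had to reach 5 FPKM and fewer genes were counted. Under each of these settings 2 collagen genes were called higher, Col1a1 and Col1a2. At 0.1 there were 4, since Col5a3 came to 1.00, while all genes called higher and lower numbered 410 and 471. Both pseudocounts kept the same 10542 genes past the filter. The number of genes past a mean of 5 FPKM is not given here, so the collagen count at that setting has no share beside it. The collagen median lay between 0.51 and 0.87 over all alternatives, and 0 collagen genes were called lower. The median of ratios scaling factor was 1.004. Without read counts, the precision of the low genes, Col11a1, Col14a1, Col16a1 and Col5a3, is unknown.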

Other observations

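Genes next to the collagens are given here as values, and were picked with those values in view. Casd1, an enzyme that O-acetylates sialic acids, is the first filtered gene after Col1a2 on chromosome 6, 59.1 kb away. It was listed at 0 in WT and had 13.3 FPKM in the KO-labelled library. Deptor, an inhibitor of mTOR and the gene before Col14a1, had 19.1 FPKM in WT and 7.04 FPKM in the KO-labelled library, a log2 fold change of -1.32. Sgca, the α-sarcoglycan gene 9.74 kb from Col1a1, had 0.584 FPKM in WT and 1.45 FPKM in the KO-labelled library, a log2 fold change of 0.63, while Col1a1 had 4.69.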
